A study of Mus musculus with 12 samples.

Results

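The 9 genes described here encode the partners of E2F6 in PRC1.6, a non-canonical form of Polycomb repressive complex 1: Rnf2, Ring1, Pcgf6, L3mbtl2, Mga, Max, Cbx3, Rybp and Yaf2. They were chosen by their known membership of that complex, out of 21887 protein-coding genes of the autosomes and sex chromosomes. No measured value entered the rule, but the set was put forward with earlier results of these data known. A peak was assigned to a gene when it overlapped the RefSeq gene span (GRCm38.p6) or the 5 kb on either side of it by at least 1 bp.

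The study immunoprecipitated chromatin from MC3T3-E1 cells, a mouse calvarial preosteoblast line, with an antibody against MACF1, a large protein that crosslinks actin and microtubules. The 12 samples formed 4 groups of 3: immunoprecipitates of MACF1 knockdown cells, inputs of knockdown cells, immunoprecipitates of control cells and inputs of control cells, with the labels 1, 2 and size3 in each. All samples came from the same cell line. More than 1 lot of the antibody is listed, with no word on which library received which. How the knockdown was made, what the control cells received and whether libraries came from separate cultures are not given in the sources used here, so p-values measure only the spread between these libraries. A peak list holds no transcript levels, so neither the knockdown nor the osteoblast identity of the cells could be checked from it.

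PRC1 complexes carry a RING-type ubiquitin ligase that places ubiquitin on histone H2A, and they help to keep developmental genes silent. The PRC1.6 form lacks the chromobox subunits that read methylated histone H3 in canonical PRC1. It is led to DNA instead by the sequence-specific pairs E2F6 with a DP protein and MGA with MAX, and in mouse embryonic stem cells it is best known for silencing germline and meiotic genes. The values below are peaks at the genes that encode these subunits. They say where the anti-MACF1 antibody recovered DNA, and they do not measure the proteins or where the complex binds.

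Peaks at the starts of these genes came from knockdown 1 and knockdown size3. The stretches from 250 bases before to 50 bases after the tabulated start are shown for Rnf2, Pcgf6 and Cbx3, whose start lay under a peak, for the neighbours H2-Ke6 and Hnrnpa2b1, whose start lay under a peak of a member's window, and for Ring1, the paralog of Rnf2, whose start had none. Each is written 5′ to 3′ on the strand of its gene, from the RefSeq promoter table of GRCm38.p6. Capitals mark GCGGGA, the core of the E2F site, on either strand, so that TCCCGC is the same core read from the other strand. The stretches lie at chr1:151500942-151501241 (Rnf2, minus strand), chr17:34024631-34024930 (Ring1, minus), chr19:47050857-47051156 (Pcgf6, minus), chr6:51470366-51470665 (Cbx3, plus), chr17:34028006-34028305 (H2-Ke6, a neighbour of Ring1, minus) and chr6:51469796-51470095 (Hnrnpa2b1, the neighbour that starts next to Cbx3, minus).
Rnf2: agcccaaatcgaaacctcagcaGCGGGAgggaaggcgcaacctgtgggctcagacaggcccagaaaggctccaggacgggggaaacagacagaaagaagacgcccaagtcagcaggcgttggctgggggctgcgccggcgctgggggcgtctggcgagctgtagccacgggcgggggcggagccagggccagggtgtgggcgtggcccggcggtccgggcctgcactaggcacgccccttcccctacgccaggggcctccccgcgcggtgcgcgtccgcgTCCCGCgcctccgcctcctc
Ring1: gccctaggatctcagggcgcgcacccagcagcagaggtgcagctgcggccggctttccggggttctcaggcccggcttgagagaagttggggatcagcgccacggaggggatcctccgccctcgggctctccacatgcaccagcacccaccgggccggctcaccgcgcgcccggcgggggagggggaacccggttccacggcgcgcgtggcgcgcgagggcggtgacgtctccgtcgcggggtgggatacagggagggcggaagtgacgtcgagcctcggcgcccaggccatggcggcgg
Pcgf6: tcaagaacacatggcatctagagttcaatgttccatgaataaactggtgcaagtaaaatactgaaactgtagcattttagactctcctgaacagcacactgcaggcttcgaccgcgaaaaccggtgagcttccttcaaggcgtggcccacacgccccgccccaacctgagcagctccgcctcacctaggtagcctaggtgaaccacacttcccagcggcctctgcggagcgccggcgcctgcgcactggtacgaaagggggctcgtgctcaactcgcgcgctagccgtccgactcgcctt
Cbx3: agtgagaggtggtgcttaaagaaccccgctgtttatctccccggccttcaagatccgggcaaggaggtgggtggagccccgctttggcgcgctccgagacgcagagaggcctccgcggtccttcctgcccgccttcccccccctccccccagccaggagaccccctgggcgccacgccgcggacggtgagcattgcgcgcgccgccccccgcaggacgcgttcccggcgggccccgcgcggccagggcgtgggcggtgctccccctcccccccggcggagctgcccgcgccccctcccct
H2-Ke6: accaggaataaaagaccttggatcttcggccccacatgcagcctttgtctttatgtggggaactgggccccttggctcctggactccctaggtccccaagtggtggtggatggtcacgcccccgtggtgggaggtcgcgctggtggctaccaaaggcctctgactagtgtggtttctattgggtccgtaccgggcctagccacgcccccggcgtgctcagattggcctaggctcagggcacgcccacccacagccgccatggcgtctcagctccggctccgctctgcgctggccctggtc
Hnrnpa2b1: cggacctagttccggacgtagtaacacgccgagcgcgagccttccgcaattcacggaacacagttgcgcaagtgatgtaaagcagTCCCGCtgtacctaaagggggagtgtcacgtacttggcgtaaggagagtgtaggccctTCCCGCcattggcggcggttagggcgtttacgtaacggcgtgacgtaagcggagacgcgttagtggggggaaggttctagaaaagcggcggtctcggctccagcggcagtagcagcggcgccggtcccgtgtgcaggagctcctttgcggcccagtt

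The Rnf2 stretch held 2 copies of the E2F core, with first bases at -228 and 31 counted from the start as 1. The Hnrnpa2b1 stretch also held 2, at -165 and -107, while Ring1, Pcgf6, Cbx3 and H2-Ke6 held none. Counted from the other tabulated start of Hnrnpa2b1, the same copies lay at -116 and -58. Among stretches not printed, those of L3mbtl2, Mga and Max held none, so Rnf2 was the only member with the core. That of Slc39a7, a neighbour of Ring1 whose start lay under no peak, held 1. Of 21263 tabulated promoters of the same length, 25.8% held at least 1 copy on either strand. The other motifs searched on both strands were CACGTG, the E-box of MAX dimers, GGTGTGA, the core of the T-box site, and CANNTG, the wider E-box that includes CACGTG. The first of these occurred once among the 7 members with a tabulated promoter, in Max, against 7.84% of all promoters. GGTGTGA occurred in none of them (3.68% of all promoters), and CANNTG occurred 2 times in Ring1 and once each in Pcgf6, Mga, Max and the second tabulated start of Cbx3 (69% of all promoters). Guanine and cytosine made up 72.7% of the Rnf2 stretch, 75.3% of that of Cbx3 and 57.7% of that of Pcgf6, against 74% in Ring1 and a median of 56.3% over all promoters. Rybp and Yaf2 are named here without a promoter sequence.

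Over all members, 7 of the 9 genes had a peak in at least 1 knockdown library and 1 of the 9 had one in a control library. Over all protein-coding genes the same shares were 57.7% and 6.7%. Knockdown 1, 2 and size3 had peaks at 6, 1 and 4 members, and control 1, 2 and size3 at 0, 0 and 1 members. The shares of all genes with a peak in the same 6 lists were 43.7%, 7.95% and 35.5% in knockdown 1, 2 and size3, and 1.38%, 0.315% and 5.49% in control 1, 2 and size3. The number of members with a peak therefore followed the order of the lists among all genes. With 9 members, 1 gene is 11.1% of the set, and in knockdown size3, knockdown 2 and control size3 the member share differed from the share of all genes by less than that. In knockdown 1, 66.7% of members had a peak, against the 43.7% of all genes.

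**Figure D1:**
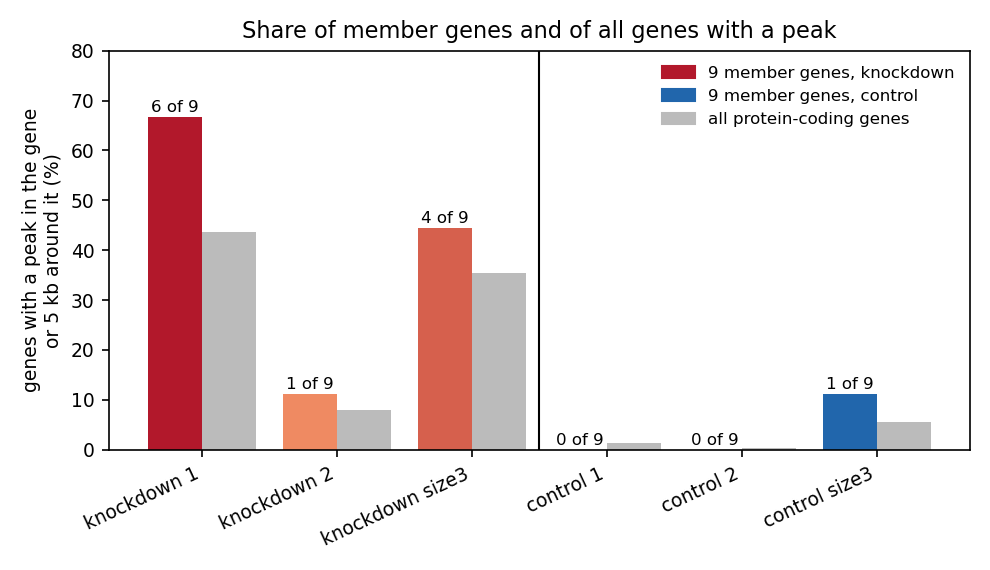
Share of genes with a peak in the gene or 5 kb around it (%, y axis) in each immunoprecipitate (x axis), for the 9 member genes (coloured bars, with their number) and for all 21887 protein-coding genes (grey bars). The member bars stand at 6, 1 and 4 of 9 in knockdown 1, 2 and size3, and at 0, 0 and 1 of 9 in control 1, 2 and size3.

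The mean number of members with a peak was 3.67 ± 2.52 in knockdown and 0.333 ± 0.577 in control libraries (SD, n = 3 each), a difference of 3.33. It was 2.17 without knockdown 1, and 1.33 with peaks of score 100 or more or with the best 2000 peaks of each list. No p-value is given for a count over members. The whole lists held 21398, 4513 and 17592 peaks in knockdown 1, 2 and size3 and 772, 198 and 2196 in control 1, 2 and size3. After duplicate removal, knockdown 1, 2 and size3 kept 18454330, 5575205 and 8175173 immunoprecipitated reads, against 26196138, 33085606 and 10698067 in control 1, 2 and size3. The share of duplicate reads was 0.51, 0.65 and 0.02 in these knockdown libraries and 0.25, 0.16 and 0.01 in these control libraries. List length, depth and duplicates differed together with the groups, and their part in the members' counts was not tested.

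Member windows differed in length, and the part of length in the counts was not tested. The members spanned 3.89 kb (Ring1) to 97.6 kb (Mga), with a median of 25.1 kb against 17.2 kb over all genes. Per 100 kb of window, the members had 2.17, 0.482 and 1.2 peaks in knockdown 1, 2 and size3. All genes had 1.37, 0.176 and 1.09 in the same libraries. The member rate of knockdown 2 rests on 2 peaks, both at Rnf2, with 10 and 8 reads. In control 1 and control 2 the members had 0, and all genes had 0.0292 and 0.00583. In control size3 the members had 0.241 peaks per 100 kb and all genes 0.113, which rests on 1 member peak. These rates are descriptions, and the difference between members and other genes was not tested.

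**Figure D2:**
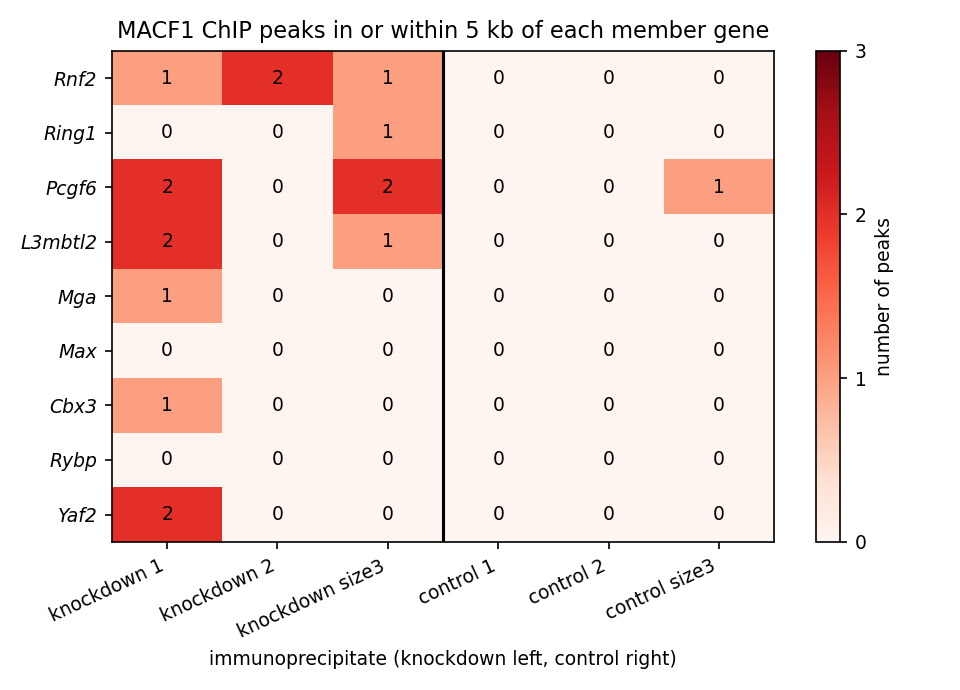
Number of peaks in or within 5 kb of each member gene (rows) in each immunoprecipitate (columns, knockdown left of the black line and control right of it), with the number printed in each cell. Rnf2 has a peak in every knockdown column, Max and Rybp have none in any column, and the single control peak is at Pcgf6 in control size3.

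The catalytic subunits are encoded by Rnf2 and Ring1, paralogous RING ubiquitin ligases that can replace each other in PRC1. Rnf2 (chromosome 1, 151469398 to 151500991, minus strand) had 1, 2 and 1 peaks in knockdown 1, 2 and size3, against 0, 0 and 0 in control 1, 2 and size3. It was the only member whose knockdown libraries all stood above its control libraries. Among all genes 2.55% did so. The mean difference was 1.33 peaks, with an exact two-sided permutation p of 0.1, the smallest that the 20 assignments of 3 and 3 libraries allow. The Benjamini-Hochberg adjusted p from the same exact test over the 12845 genes with a peak in any list was 0.967. No gene can pass 0.05 in this design, and 0 genes did before or after adjustment.

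The Rnf2 peaks of knockdown 1 and knockdown size3 marked the same place, at the start of the gene. The knockdown 1 peak (151499867 to 151501466) held 119 reads, with a deposited fold enrichment over input of 3.63, and had its summit 463 bp downstream of the start. The knockdown size3 peak (151500051 to 151500828) held 17 reads, with a fold enrichment of 11.55, and had its summit 606 bp downstream. The size3 peak lay wholly inside that of knockdown 1, and the summits were 143 bp apart. The knockdown 1 peak covered all 300 bases of the promoter stretch printed above. The size3 peak lay within the gene and ended short of the start. Its deposited false discovery rate was 2.99%, and that of the knockdown 1 peak was 1.68%.

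Knockdown 2 had its Rnf2 peaks elsewhere. They lay inside the gene at 151482294 to 151482675 (10 reads, fold enrichment 20.8) and at 151495459 to 151495803 (8 reads, fold enrichment 12.76). The second ended 4064 bp from the knockdown 1 peak, and neither overlapped a peak of another library. Both had a deposited false discovery rate of 100%, which means that at least as many peaks of that strength were found when the immunoprecipitate and input were swapped. So the 3 knockdown libraries agreed on the gene and not on the position. Without knockdown 2 the mean difference at Rnf2 was 1.00 peak (exact permutation p = 0.1, 2 against 3 libraries). With peaks of at most 5% false discovery rate it was 0.67 (exact permutation p = 0.4). It was 0.33 with the best 2000 peaks of each list and 0.00 with peaks of score 100 or more, both with an exact permutation p of 1.

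Ring1 (chromosome 17, 34020792 to 34024680, minus strand) is the shortest member and had no peak in the gene in any library. Knockdown size3 had 1 peak in its window, spanning 34027450 to 34030417 (80 reads, fold enrichment 4.01). That peak began 2770 bp beyond the start of Ring1 and lay over H2-Ke6 and Slc39a7, with its summit inside Slc39a7, a zinc transporter gene. It covered all 300 bases of the H2-Ke6 promoter and none of that of Ring1. Knockdown 1 and 2 and control 1, 2 and size3 had 0 peaks there, a mean difference of 0.33 (exact permutation p = 1). The nearest knockdown 1 peak was 15.9 kb from Ring1. At Rnf2 the peaks of knockdown 1 and knockdown size3 thus lay at the start of the gene, and the 2 of knockdown 2 lay deeper inside it. The single peak in the Ring1 window, of knockdown size3, lay over neighbouring genes. This difference between the paralogs was not tested.

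Pcgf6 encodes the PCGF subunit that sets PRC1.6 apart from the other PRC1 forms (chromosome 19, 47033617 to 47050939, minus strand). It had 2, 0 and 2 peaks in knockdown 1, 2 and size3, against 0, 0 and 1 in control 1, 2 and size3. Its groups overlapped through knockdown 2 and control size3, and the mean difference was 1.00 peak (exact permutation p = 0.4, adjusted p = 0.967). Pcgf6 was the only member with a control peak. Of all genes, 2.1% had peaks in the same 3 libraries and in no other.

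Inside Pcgf6, peaks of 3 libraries followed each other over a short stretch. The knockdown 1 peak (47040713 to 47041438) held 27 reads, at a fold of 5.11 over input. That of knockdown size3 (47040253 to 47041363) held 28 reads, at a fold of 7.7. That of control size3 (47039839 to 47040505) held 17 reads, at a fold of 8.09. The size3 peaks of knockdown and control overlapped by 253 bp, and those of knockdown size3 and knockdown 1 by 651 bp. The knockdown 1 and control size3 peaks did not touch, with 208 bp between them, and their summits were 1049 bp apart. All 3 summits lay about 10 kb into the gene, 9764 bp from its start in knockdown 1, 10348 bp in knockdown size3 and 10813 bp in control size3.

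Read density can be given for these 3 called peaks. Scaled to 1000000 immunoprecipitated reads and 1 kb of peak, knockdown 1 had 2.02 reads, with a 95% exact Poisson interval of 1.33 to 2.93. Knockdown size3 had 3.08 on the same scale, with an interval of 2.05 to 4.46. Control size3 had 2.38, with an interval of 1.39 to 3.81. Such intervals cover counting error only, and the peak edges were set separately in each library. The 3 intervals overlapped. The deposited false discovery rates did differ between the libraries, at 2.86% in knockdown 1 and 2.08% in knockdown size3, against 90.6% in control size3. This difference is not particular to Pcgf6: 0% of all genes had a peak with a rate of at most 5% in control size3. Control 1 and control 2 had no call here, and these libraries held the most immunoprecipitated reads after duplicate removal. Each list names only what passed its own threshold, so the read density of the other libraries at this place is not known from it.

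At the start of Pcgf6 only knockdown size3 had a peak. It spanned 47050218 to 47051149 with 35 reads and a fold enrichment of 6.3, and its summit lay 250 bp downstream of the start. It covered 293 of the 300 bases of the Pcgf6 promoter. Knockdown 1 had instead a peak at 47047134 to 47047891, with 36 reads, a fold enrichment of 5.06 and its summit 3567 bp downstream. The knockdown 1 peak was among the weakest of its list by score, at percentile 0.636, and the size3 peak stood at percentile 48 of its own.

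**Figure D3:**
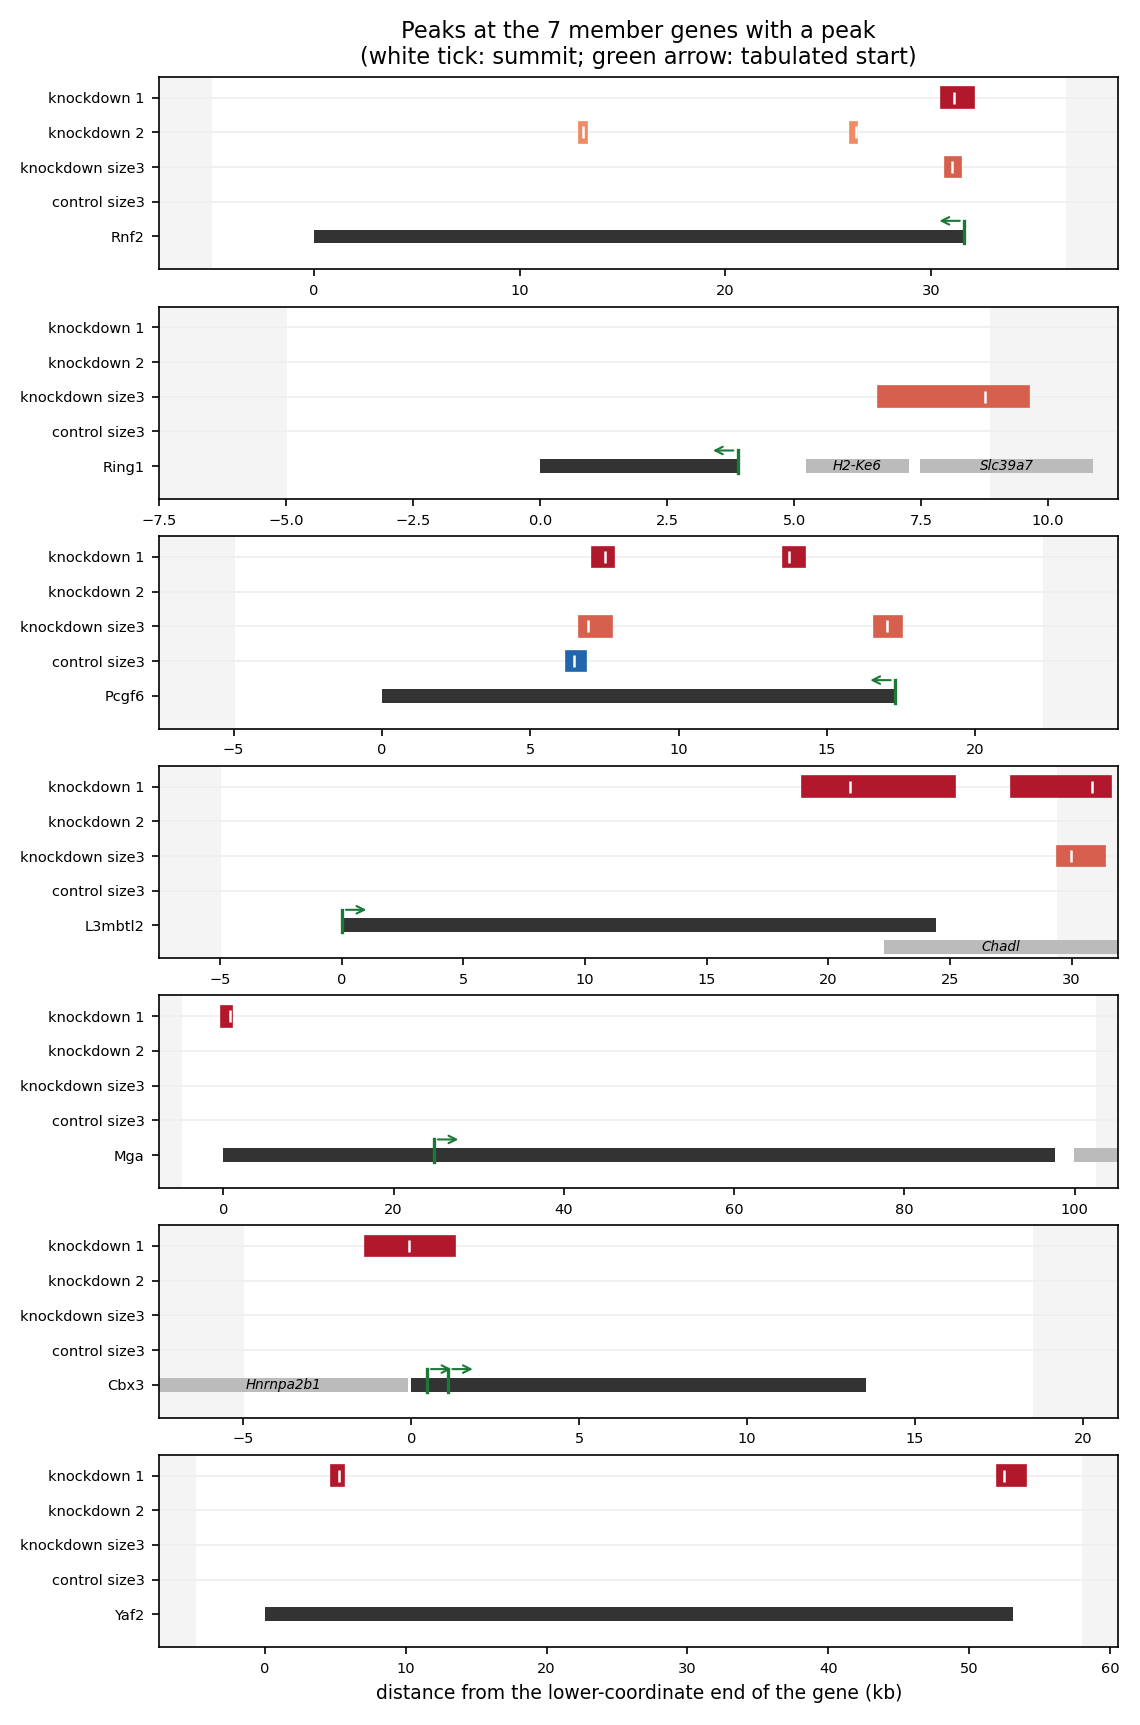
Maps of the 7 member genes with a peak, 1 panel each, with distance from the lower-coordinate end of the gene in kb on the x axis and 1 row for each immunoprecipitate that had any member peak. Boxes are peaks, black bars the gene, grey bars neighbouring protein-coding genes, and grey shading lies more than 5 kb from the gene. Peaks of knockdown 1 and knockdown size3 coincide at the start of Rnf2, within Pcgf6 and beyond the end of L3mbtl2.

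L3mbtl2 encodes an MBT-domain protein of PRC1.6 that compacts chromatin (chromosome 15, 81663889 to 81688315, plus strand). It had 2, 0 and 1 peaks in knockdown 1, 2 and size3, against 0, 0 and 0 in control 1, 2 and size3. The mean difference was 1.00 peak (exact permutation p = 0.4, adjusted p = 0.967), and the groups overlapped through knockdown 2. No peak lay near its start: the nearest summit was 20903 bp downstream. The peaks lay instead at the far end of the gene and beyond it, where Chadl, a gene for a cartilage leucine-rich repeat protein on the opposite strand, overlaps its last 2150 bp.

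The first L3mbtl2 peak of knockdown 1 was the widest at any member (81682822 to 81689096) and held 382 reads at a fold of 2.75. It covered 5494 bp of L3mbtl2, and its summit lay within L3mbtl2. The second, at 81691396 to 81695492, held 386 reads with a fold enrichment of 3.08. The knockdown size3 peak (81693284 to 81695284) held 67 reads at a fold of 5.52 and lay wholly inside the second knockdown 1 peak. These peaks lay in Chadl and outside L3mbtl2. The knockdown size3 peak starts 4969 bp past the end of L3mbtl2, so the 5 kb window only just took it in. By score they stood at percentile 93.4 of knockdown 1 and 97.8 of knockdown size3, the highest pair of values for any region shared by these libraries at a member.

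The DNA-binding pair is encoded by Mga, which carries a T-box and a helix-loop-helix domain, and Max, its helix-loop-helix partner and the shared partner of the Myc and Mxd proteins. Mga (chromosome 2, 119872503 to 119970129, plus strand) had 1, 0 and 0 peaks in knockdown 1, 2 and size3, against 0, 0 and 0 in control 1, 2 and size3. The mean difference was 0.33 (exact permutation p = 1). The peak of knockdown 1 (119872193 to 119873566) crossed the lower end of the gene and held 100 reads, at a fold of 4.76. It had the highest score of all member peaks, 131.41, at percentile 96.4 of its list. Its summit lay 831 bp inside the gene span and 23894 bp upstream of the start in the promoter table, which lists 1 start for Mga and not the end of the span.

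Max (chromosome 12, 76937269 to 76962323, minus strand) had 0 peaks in each of the 6 libraries. The nearest peak was 25.5 kb away in knockdown size3 and 60.9 kb away in knockdown 1. Of all genes, 41.3% had no peak in any list. Its promoter was the only tabulated member promoter with the CACGTG motif. A single promoter cannot show whether the motif of MAX dimers and peaks go together.

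Cbx3 encodes HP1 gamma, a chromodomain protein that binds methylated histone H3 and joins PRC1.6 (chromosome 6, 51470154 to 51483704, plus strand). It had 1, 0 and 0 peaks in knockdown 1, 2 and size3, against 0, 0 and 0 in control 1, 2 and size3, a mean difference of 0.33 (exact permutation p = 1). The knockdown 1 peak (51468786 to 51471447) held 242 reads, at a fold of 3.0. It covered both tabulated starts of Cbx3 and both of Hnrnpa2b1, which encodes an RNA-binding protein and is transcribed away from Cbx3. The gene spans are 105 bp apart and the summit fell in that gap, so the peak cannot be assigned to either gene. The nearest size3 peaks were 47.4 kb away in knockdown and 31.1 kb away in control.

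Rybp and Yaf2 are paralogs that bind the RING subunit in place of a chromobox protein, and each non-canonical PRC1 holds one of them. Yaf2 (chromosome 15, 93283833 to 93336935) had 2, 0 and 0 peaks in knockdown 1, 2 and size3, against 0, 0 and 0 in control 1, 2 and size3. The mean difference was 0.67 (exact permutation p = 1). One peak lay across the upper end of the gene (93335781 to 93337873; 144 reads, fold enrichment 3.95), and its summit was 623 bp inside. The other lay inside the gene (93288557 to 93289456; 41 reads, fold enrichment 5.24), at percentile 3.34 of its list by score.

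Rybp (chromosome 6, 100228565 to 100287358) had 0 peaks in each of the 6 libraries, although it is the second longest member at 58.8 kb. Peaks lay beyond its upper end, 10.3 kb away in knockdown 1 and 12.9 kb away in knockdown size3, outside the window of 5 kb and also outside one of 10 kb. The nearest control size3 peak was 32.3 kb away. Between these paralogs the peaks of knockdown 1 thus fell at Yaf2 and not at Rybp, and this difference was not tested.

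In all, the members had 17 peaks: 9 in knockdown 1, 2 in knockdown 2, 5 in knockdown size3 and 1 in control size3. The 9 peaks of knockdown 1 ranged in fold enrichment over input from 2.75 to 5.24 with a median of 3.95, against a median of 4.98 over its whole list. Their median was 119 reads, against 46 over the list. The 5 peaks of knockdown size3 had a median fold enrichment of 6.3 and a median of 35 reads, against 8.1 and 17 over its list. Member peaks had a median width of 1600 bp in knockdown 1 and 1110 bp in knockdown size3, against 990 and 647 bp over the lists. These read numbers are not scaled to width. In both libraries the median of the member peaks was higher in reads and lower in fold than that of the list, which was not tested. Single peaks went the other way, such as those inside Pcgf6 and Yaf2 in knockdown 1, with 27, 36 and 41 reads and folds of 5.11, 5.06 and 5.24. The fold, score and false discovery rate are the authors' values for each peak.

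**Figure D4:**
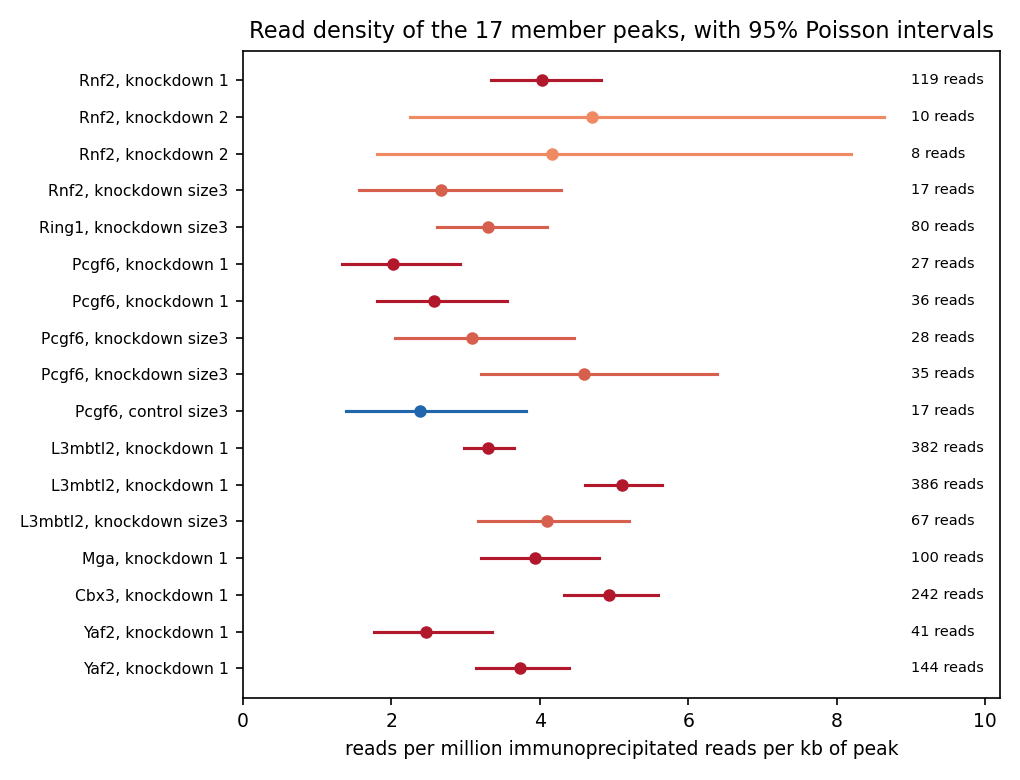
Reads in the peak per 1000000 immunoprecipitated reads and per kb of peak (x axis) for each of the 17 member peaks (y axis, gene and library), with 95% exact Poisson intervals as bars and the number of reads at the right. The values run from 2.02 at Pcgf6 to 5.11 beyond the end of L3mbtl2, both in knockdown 1, and the 2 peaks of knockdown 2 have the widest intervals.

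Summits of 6 of the 17 member peaks lay within 1 kb of an end of the gene, 4 of 9 in knockdown 1 and 2 of 5 in knockdown size3. These were the peaks at the start of Rnf2 in both libraries, at the start of Pcgf6, and at one end of Mga, Cbx3 and Yaf2. Over all pairs of a gene and a peak in its window, 21.4% in knockdown 1 and 18.6% in knockdown size3 had the summit as near to an end of that gene. No summit of knockdown 2 or control size3 did so at a member, and the shares over all genes were 3.27% and 9.08% in those libraries.

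A region shared by knockdown 1 and knockdown size3 lay in the window of 3 of the 9 members, Rnf2, Pcgf6 and L3mbtl2. Of all genes, 8.23% had such a region. Earlier results of these data already showed a region at each of them when the set was put forward, so the count is no independent sign that the set differs from other genes. Only the Rnf2 and Pcgf6 regions lay in the gene itself. The overlap was 778 bp at Rnf2, 651 bp in Pcgf6 and 2001 bp beyond L3mbtl2.

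The remaining subunits of PRC1.6 were looked at in the same way: E2f6 and its DP partners Tfdp1 and Tfdp2, the WD-repeat gene Wdr5 and the histone deacetylases Hdac1 and Hdac2. Of these 6 genes, 4 had a peak in a knockdown library and 0 in a control library, beside the 57.7% and 6.7% of all genes. Hdac1 had 1 peak in each of knockdown 1, 2 and size3 and 0 in control 1, 2 and size3. The difference was 1.00 (exact permutation p = 0.1, adjusted p = 0.967). Its knockdown libraries all stood above its control libraries, as did those of 2.55% of all genes. This pattern needs a knockdown 2 peak. With a false discovery rate of at most 5%, 0.032% of all genes kept a peak in knockdown 2, against 7.95% without that limit. Hdac1 also held a region shared by knockdown 1 and knockdown size3. Wdr5 and Tfdp2 had 1 peak each in knockdown size3, and Tfdp1 had 1 in knockdown 1. E2f6 itself and Hdac2 had no peak in any list.

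Among the genes of the other PRC1 forms, 19 of 21 had a peak in a knockdown library and 3 of 21 in a control library, with a median span of 55.3 kb. Their share with a peak is higher than that of all genes and their spans are longer, and the part of length in it was not tested. A region shared by knockdown 1 and knockdown size3 lay in the window of 5 of these 21 genes, beside 8.23% of all genes. Pcgf5, which replaces Pcgf6 in another PRC1, had 6, 1 and 4 peaks in knockdown 1, 2 and size3. It had 0, 0 and 0 in control 1, 2 and size3 (difference 3.67, exact permutation p = 0.1, adjusted p = 0.967). Of all genes, 2.55% had more peaks in every knockdown library than in any control library. The limit on knockdown 2 peaks given for Hdac1 holds here too. Auts2, a subunit of the Pcgf5-type complex, had 8, 0 and 8 peaks in knockdown and 2, 0 and 3 in control libraries of the same labels. Its difference was also 3.67 (exact permutation p = 0.4). Phc3, a polyhomeotic gene, had 0, 1 and 2 peaks in knockdown and 0, 0 and 1 in control, and Scmh1 had 1, 1 and 0 in knockdown and 0, 0 and 0 in control.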

How the data were processed

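Peak lists of MACF1 immunoprecipitates from knockdown and control MC3T3-E1 cells were analysed. Per the submitters' processing notes, reads were processed with cutadapt, Bowtie2 and MACS 1.4.2 on GRCm38. Per the file headers, each immunoprecipitate was called against its own input from uniquely mapped reads, with a p cutoff of 1.00e-05, 1 read kept per position, the larger data set scaled to the smaller and no pooling. The deposited counts are whole reads in each peak once duplicates were dropped. As score the authors deposited the negative log10 of the p-value times 10, and as fold a ratio of reads over the local input background. Their false discovery rate is deposited in percent and comes from swapping immunoprecipitate and input. Per the file headers, the fragment length used was 209, 129 and 198 bp in knockdown 1, 2 and size3 and 200 bp in each control library. Inputs entered only through these calls.

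Gene spans and promoters came from RefSeq tables of GRCm38.p6, and no genome sequence or exon annotation was used here. The strand is known only for genes in the promoter table, which held 7 of the 9 members. The number of peaks per gene was compared between the groups by an exact two-sided permutation test of the mean difference, with Benjamini-Hochberg adjustment over 12845 genes. Counts over members got no test. All 75 entries of 6 further gene lists matched a gene, 1 through a synonym. Of each list, at most 4 genes are named, ranked on how many libraries had a peak there and, in ties, on the best fold. Same-numbered libraries were checked for pairing. The members and lists were chosen with earlier results of these data known. Overlap counting and the test were tested on simulated data with Python 3.11.15, numpy 2.4.6 and scipy 1.17.1. Alternatives changed the window, the peak threshold, the overlap rule and the libraries used.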

Additional observations from a re-analysis of the deposited data

How the results depend on the processing

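The mean difference in members with a peak kept its direction under every alternative run. It ranged from 1.33 (peaks of score 100 or more, or the best 2000 peaks of each list) to 3.33 over the other windows and thresholds, and from 2.17 to 4.67 with 1 library left out. At a false discovery rate of at most 5%, 0% of all genes had a peak in control 1, 2 or size3, so no reversal was possible. With a score of 100 or more these control shares were 0.0594%, 0.0228% and 0.0685%, which left little room for one. The best 2000 peaks kept all 772 and 198 peaks of control 1 and 2. Members with a region shared by knockdown 1 and knockdown size3 numbered 1 in place of 3 under a reciprocal overlap of 50%, where Rnf2 (48.6% of the knockdown 1 peak) and L3mbtl2 (48.8%) fell just short, and 1 with a score of 100 or more. Summits near a gene end numbered 3 within 500 bp. The Pcgf6 difference reversed to -0.33 with the best 2000 peaks, which keep nearly all of the control size3 list and a small part of the long knockdown lists. Of 135 single-gene values, 92 kept their direction, 30 were 0 in both, 12 fell to 0 and 1 reversed, and no p fell under 0.1. Those that fell to 0 were Rnf2, Ring1, Pcgf6 and Yaf2 with a score of 100 or more, Ring1 and Yaf2 with the best 2000 peaks, Mga, Cbx3 and Yaf2 without knockdown 1, and Ring1 without knockdown size3, on the gene span alone and with 1 kb. With the replicate block the mean difference was again 3.33 and Rnf2 had an exact permutation p of 0.25, the smallest that 3 labels allow. Labels 1, 2 and size3 were not treated as pairs, since deviations of the same label correlated at -0.07, 0.18 and 0.15 and not all passed 0.1. The highest correlation with another label was 0.08, 0.18 and -0.11, so size3 correlated best with itself, and both size3 immunoprecipitates had low duplicate rates (0.02 in knockdown, 0.01 in control). A list shows no reads below its own threshold, so a count of 0 in a library is not a measured absence of reads.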

Other observations

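The repressor complexes that work beside PRC1.6 were looked at in the same way, beside the 57.7% of all genes with a knockdown peak and 6.7% with a control peak. PRC2 genes had a peak in a knockdown library at 8 of 11 and in a control library at 1 of 11. A region shared by knockdown 1 and knockdown size3 lay at 1 of 11, beside 8.23% of all genes. Suz12, a core PRC2 subunit, had 0, 1 and 1 peaks in knockdown 1, 2 and size3 and 0, 0 and 1 in control 1, 2 and size3. Aebp2 had 1, 2 and 0, Jarid2 had 1, 0 and 1, and Phf1 had 2, 0 and 1 in the knockdown libraries, with 0 in each control library. Of the genes of heterochromatin and H3K9 methylation, 8 of 9 had a knockdown peak, 2 of 9 a control peak and 1 of 9 such a shared region. Trim28, a corepressor of zinc finger proteins, had 1, 0 and 1 peaks in knockdown and a region shared by knockdown 1 and knockdown size3, with 0 peaks in control. Wiz had 2, 0 and 3 in knockdown and 0 in control libraries. Cbx5 (knockdown 2 and control size3) and Ehmt1 (knockdown 1 and control size3) had 1 peak in each group.

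The list taken as germline and meiosis targets of PRC1.6 in mouse embryonic stem cells also held Zfp42, which is not silenced in those cells. Zfp42 had 1 peak, in knockdown size3. With it, the list had a knockdown peak at 12 of 17 and a control peak at 0 of 17. A region shared by knockdown 1 and knockdown size3 lay at 0 of 17. Over all genes the shares were 57.7%, 6.7% and 8.23%, and at this list size a count of 0 shared regions is near that share. Slc25a31, a testis ADP/ATP carrier, and Smc1b, a meiotic cohesin gene, had 1 peak each in knockdown 2 and in knockdown size3. Meioc had 1 each in knockdown 1 and knockdown size3, and Sycp3 had its only peak in knockdown 2. With a false discovery rate of at most 5%, 0.032% of all genes kept a peak in knockdown 2. Of the other genes of the MAX network, 6 of 11 had a knockdown peak, 0 of 11 a control peak and 0 of 11 a shared region. Mxi1, a MAX-binding antagonist of Myc, had 5, 1 and 1 peaks in knockdown 1, 2 and size3. It had 0 in control 1, 2 and size3 (difference 2.33, exact permutation p = 0.1, adjusted p = 0.967). Of all genes, 2.55% had more peaks in every knockdown library than in any control library, and the same limit on knockdown 2 peaks holds. Mlxipl had 2, 0 and 3, Mxd4 had 1, 0 and 1, and Mlx had 0, 0 and 1 in the knockdown libraries, with 0 in each control library.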
